A study of Mus musculus with 6 samples.

Results

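The epithelial keratins described here were Krt7, Krt8, Krt18, Krt19, Krt20, Krt23 and Krt80, which made up 7 of the 19616 genes in the deposited count table and were taken by gene symbol as keratins of simple epithelia, with earlier results of these data known. All 7 had a row in the table, and all 7 were among the 15618 genes that passed the filter on low counts. RNA-Seq was performed on jejunal intestinal epithelial cells (IEC) from wild-type mice, called control, and from villin-Cre Hdac1-/-; Hdac2-/- mice, called Hdac1/2-deleted, to ask how loss of both histone deacetylases in IEC changes their transcriptome. Each group held 3 mice aged 3 months on a mixed C57BL/6J, 129SV and CD1 background, with 1 library per mouse (C1, C3 and C3-3 for control, H1, H5 and H9 for Hdac1/2-deleted). The villin promoter drives Cre in the intestinal epithelium from the crypt upwards, so other cells of the mucosa keep their alleles. IEC were detached with EDTA and not sorted, and polyadenylated RNA was sequenced.

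Keratins are the intermediate filament proteins of epithelia. A type I keratin pairs with a type II keratin, and only such pairs assemble into filaments. In the simple epithelium of the intestine, Krt8 is the main type II keratin, and Krt18, Krt19 and Krt20 are its type I partners. Krt20 is enriched in differentiated cells of the villus, Krt7 is best known from ducts and transitional epithelia, and Krt18 is a common stain for tuft cells. KRT23 is known as a gene that histone deacetylase inhibitors induce in pancreatic cancer cells.

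Counted reads ranged from 58017009 to 65902344 per control library and from 36111035 to 65230566 per Hdac1/2-deleted library, with H5 the shallowest. At these depths 3 counts, taken as the floor of detection, corresponded to 0.0405 to 0.0790 CPM, the counts of a gene scaled to its library's TMM-adjusted total, a limit that covers counting error only. Hdac1 fell from 34.5 to 48.9 CPM in control mice to 2.53 to 4.81 CPM in Hdac1/2-deleted mice (log2 fold change -3.43, edgeR quasi-likelihood test, adjusted p = 2.9e-05). Hdac2 was at 23.6 to 32.9 CPM in control and 21.4 to 26.6 CPM in Hdac1/2-deleted mice. Counts over the whole of Hdac2 do not check its deletion, since the removed part of the gene was not given in the sources used here. Library C3 stood apart from the other 5 libraries with 3082 counts summed over 4 Y-linked genes, against 1 to 13. Library C3-3 stood apart from the other control libraries in smooth muscle markers, with a summed level of 2.56 CPM against 48.4 and 63.9 CPM. Results that move without either library are given both ways.

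The 7 genes lie in the 2 keratin clusters of the mouse genome (GRCm38, GENCODE M21 positions). On chromosome 15, the type II cluster holds Krt80 (ENSMUSG00000037185, 101347444 to 101370162, minus strand), Krt7 (ENSMUSG00000023039, 101411043 to 101430313, plus strand) and Krt8 (ENSMUSG00000049382, 101996698 to 102004482, minus strand). Krt18 (ENSMUSG00000023043, 102028180 to 102032027, plus strand) is the type I gene that sits at the edge of this cluster, 23697 bases from Krt8, with the starts of both genes facing each other. On chromosome 11, the type I cluster holds Krt20 (ENSMUSG00000035775, 99428403 to 99438150), Krt23 (ENSMUSG00000006777, 99477974 to 99493137) and Krt19 (ENSMUSG00000020911, 100140810 to 100148665), all on the minus strand. Counts were deposited per gene and resolve no single exon.

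Promoter sequence is shown for Krt18 and Krt20, because these were the members that differed between the groups in opposite directions. Both are RefSeq sequences on GRCm38.p6, written 5′ to 3′ in the direction of the gene. Krt18 is at chr15:102027966-102028209 on the plus strand and Krt20 at chr11:99438124-99438403 on the minus strand. The stretch shown for Krt18 holds 244 bases and stops 6 bases before its RefSeq start. That for Krt20 holds 280 bases and runs 30 bases past its RefSeq start. Capitals mark matches to any of 5 motifs searched on both strands, namely the TATA box TATAAA, the Sp1 core GGGCGG, the letters CCAAT of the CCAAT box, the AP-1 site TGANTCA and the CDX core TTTAT. The TATA box and the CDX core can overlap.
Krt18: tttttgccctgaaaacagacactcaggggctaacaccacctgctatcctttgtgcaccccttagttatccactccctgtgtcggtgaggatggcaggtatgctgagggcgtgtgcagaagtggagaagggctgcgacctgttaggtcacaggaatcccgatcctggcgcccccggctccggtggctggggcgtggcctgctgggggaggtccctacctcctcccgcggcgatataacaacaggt
Krt20: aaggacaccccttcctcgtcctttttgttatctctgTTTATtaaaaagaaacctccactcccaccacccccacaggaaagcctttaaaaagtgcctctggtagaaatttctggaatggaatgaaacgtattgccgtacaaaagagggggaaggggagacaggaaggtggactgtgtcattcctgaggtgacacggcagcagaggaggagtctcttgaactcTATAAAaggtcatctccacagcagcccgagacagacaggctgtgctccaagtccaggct

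The RefSeq promoter table held 5 of the 7 members and was searched over 280 bases, from 250 before the annotated start to 30 after it. Krt19 and Krt80 had no entry. The Krt18 window held none of the 5 motifs. In Krt20, TATAAA began 29 bases before the start. Krt8 also held TATAAA, here across the annotated start, and Krt7 held 4 matches to GGGCGG. Among all 32851 promoters of the same length, 13.1% held TATAAA, 34.7% GGGCGG, 36.1% CCAAT, 7.46% TGANTCA and 38.9% TTTAT. Over the 280 bases searched, the GC content was 61.4% for Krt18, 58.6% for Krt8 and 49.3% for Krt20, against a median of 52.5% over all promoters. A match is a description of the letters only.

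Of the 7 epithelial keratins, Krt18 was increased in Hdac1/2-deleted IEC, and Krt20 was lower by less than 2-fold. The other 5 did not pass the test. Calls required an edgeR adjusted p, corrected over all 15618 genes tested, no higher than 0.05 together with a change of 2-fold or more. By that rule 1 member was increased, where 12.4% of all genes tested were, and 0 members were decreased, where 12.7% of all genes were. That near-even split over all genes, 1944 increased and 1990 decreased, was 2463 and 1538 when only library totals set the scale. DESeq2 also called 0 members decreased, and 1 member that was lower, Krt20, had an unadjusted edgeR p under 0.05. With the adjusted p alone, 1 member was higher and 1 lower, against 20.5% and 20.3% of all genes. The ranges of both groups were apart for 2 members that were higher and 1 that was lower, against 26.7% and 26.6% of all genes, and overlapped for 4. Read against these background shares, the counts are no result about the 7 genes as a set. The median log2 fold change of the 7 members was 0.29, beside -0.01 over all genes tested.

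**Figure D1:**
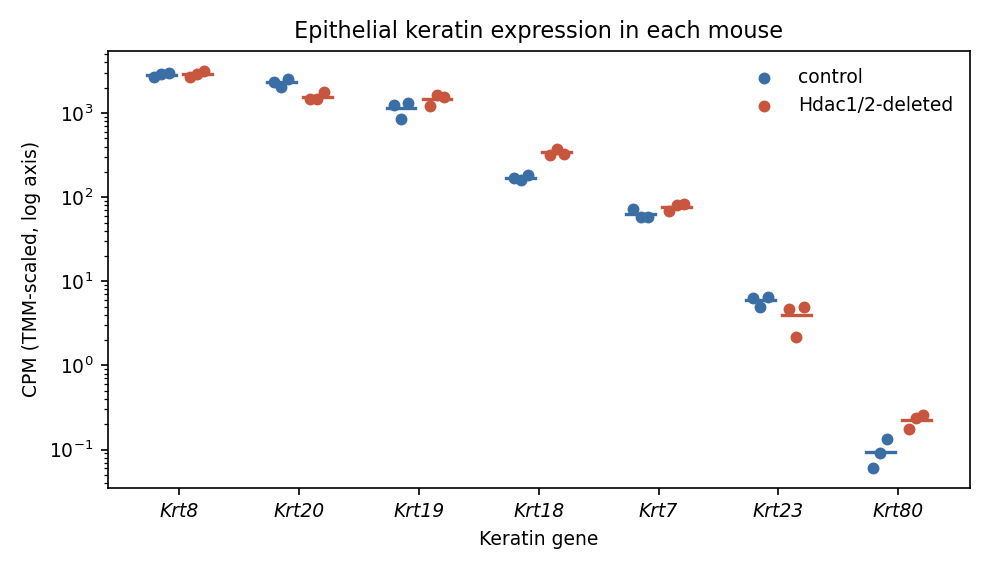
Level of each of the 7 epithelial keratins in each mouse, in TMM-scaled CPM on a log axis; points are mice (3 control, 3 Hdac1/2-deleted) and bars are group means. The Krt18 points of Hdac1/2-deleted mice (322 to 379 CPM) lie above those of control mice (159 to 182 CPM), the Krt20 points lie below, and the Krt8 points of both groups cover the same range.

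Krt8, the main type II keratin of the IEC, was at 2666, 2913 and 3035 CPM in C1, C3 and C3-3. In H1, H5 and H9 it was at 2654, 2903 and 3201 CPM. Both groups covered nearly the same range. The mean was 2871 ± 188 CPM in control and 2919 ± 274 CPM in Hdac1/2-deleted mice (SD, n = 3 each). The log2 fold change was 0.02 (standard error 0.17, edgeR adjusted p = 0.92), and its 95% interval, as a ratio, ran from 0.777 to 1.33. A change of 2-fold in either direction was therefore outside the interval. By mean log2 CPM, Krt8 ranked 33 of the 15618 genes tested.

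Krt18, a type I partner of Krt8, was at 167, 159 and 182 CPM in C1, C3 and C3-3. In H1, H5 and H9 it was at 322, 379 and 330 CPM. The lowest Hdac1/2-deleted mouse lay above the highest control mouse. The mean rose from 170 ± 11.7 to 344 ± 30.9 CPM, a ratio of 2.03, and the log2 fold change was 1.02 (standard error 0.14, 95% interval 0.70 to 1.34, edgeR adjusted p = 5.9e-04). The change lay at the 2-fold limit. Without C3 the log2 fold change was 0.98 (edgeR adjusted p = 0.0024) and without H5 it was 0.95 (edgeR adjusted p = 0.0032), so that Krt18 was no longer called in either case although its adjusted p stayed under the limit. Across 12 other settings the log2 fold change of Krt18 ranged from 0.95 to 1.21, and the adjusted p was at most 0.05 in all 12.

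The ratio of the 2 partners within each library does not depend on depth or scaling. For every 100 counts of Krt8 there were 6.28, 5.46 and 6.0 counts of Krt18 in C1, C3 and C3-3, and 12.1, 13.1 and 10.3 in H1, H5 and H9. The groups did not overlap, with means of 5.91 ± 0.417 and 11.8 ± 1.4. The log2 ratio was higher by 1.0 in Hdac1/2-deleted mice, or 2.0-fold (2-sided exact permutation p = 0.10, the smallest that 3 mice against 3 allow). Leaving out each mouse in turn gave differences of 0.92 to 1.09 on the log2 scale. Of the Krt8 gene's distinct 100-base stretches, 17.1% also occurred in other annotated genes, the pseudogene Krt8-ps and the overlapping Gm36026, whereas 0 of the 1338 stretches of Krt18 did. How the reads of such stretches were assigned was not given in the sources used here.

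Krt20, the type I keratin of differentiated villus cells, was at 2358, 2026 and 2575 CPM in C1, C3 and C3-3. In H1, H5 and H9 it was at 1456, 1465 and 1780 CPM. The highest Hdac1/2-deleted mouse lay below the lowest control mouse. The mean was 2320 ± 276 CPM in control and 1567 ± 184 CPM in Hdac1/2-deleted mice, a ratio of 0.675, with a log2 fold change of -0.57 (standard error 0.18, 95% interval -0.97 to -0.16, edgeR adjusted p = 0.032). Krt20 thus passed the adjusted p but not the 2-fold limit. That pass was kept in 7 of 12 other settings. It was kept without C3 (log2 fold change -0.65, edgeR adjusted p = 0.027) and without H9 (adjusted p = 0.041), and was lost without C1 (adjusted p = 0.059), C3-3 (adjusted p = 0.13), H1 (adjusted p = 0.084) or H5 (adjusted p = 0.11). It was also lost with library totals as the only scaling, where the log2 fold change was -0.38 (edgeR adjusted p = 0.079).

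Krt19, the third abundant type I keratin, was at 1239, 841 and 1335 CPM in C1, C3 and C3-3. In H1, H5 and H9 it was at 1199, 1622 and 1544 CPM. H1 lay within the control range and C3 was the lowest of all 6 mice. The mean was 1138 ± 262 CPM in control and 1455 ± 225 CPM in Hdac1/2-deleted mice (log2 fold change 0.35, standard error 0.22, 95% interval -0.14 to 0.85, edgeR adjusted p = 0.22). Without C3 the log2 fold change was 0.18 (edgeR adjusted p = 0.52).

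Krt7, a type II keratin of ducts, was at 71.7, 58.1 and 58.9 CPM in C1, C3 and C3-3 and at 68.9, 79.8 and 82.7 CPM in H1, H5 and H9. H1 lay below C1, so the groups overlapped. The log2 fold change of Krt7 was 0.29 (standard error 0.14, 95% interval -0.03 to 0.62, edgeR adjusted p = 0.13). Scaling by library totals alone, which raised the median of all genes by 0.19 on the log2 scale, put Krt7 at 0.47 (edgeR adjusted p = 0.04).

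Krt23, the type I keratin named above for its response to deacetylase inhibitors in another cell type, was at 6.37, 4.97 and 6.47 CPM in C1, C3 and C3-3. In H1, H5 and H9 it was at 4.70, 2.16 and 5.02 CPM. The groups overlapped, with H5 the lowest of all 6 mice. The mean was 5.94 ± 0.840 CPM in control and 3.96 ± 1.57 CPM in Hdac1/2-deleted mice (log2 fold change -0.58, standard error 0.33, 95% interval -1.32 to 0.17, edgeR adjusted p = 0.19). The upper bound of the interval, as a ratio, was 1.12. Without H5 the log2 fold change was -0.28.

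Krt80, a type II keratin with a low level here, had 4, 5 and 7 counts in C1, C3 and C3-3 and 13, 9 and 16 counts in H1, H5 and H9. Its CPM values did not overlap between the groups, at 0.0604 to 0.132 in control and 0.175 to 0.260 in Hdac1/2-deleted mice. The log2 fold change was 1.24 (standard error 0.51, 95% interval 0.08 to 2.41) and did not pass the adjusted p (edgeR adjusted p = 0.083). The means were 0.0940 and 0.224 CPM, and an antisense gene, Gm35853, overlaps it. Krt80 ranked 15428 of the 15618 genes by mean log2 CPM. With library totals only it passed both limits (log2 fold change 1.43, edgeR adjusted p = 0.047).

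Levels can be compared between genes only per length, so CPM was divided by the length of the gene's exons in kilobases. In control mice the order of the mean levels was Krt8 (1466 ± 95.9 CPM per kilobase), Krt20 (1204 ± 143), Krt19 (614 ± 141), Krt18 (118 ± 8.17), Krt7 (8.92 ± 1.08), Krt23 (3.79 ± 0.537) and Krt80 (0.0147 ± 0.00561). Neighbours in that order did not overlap in their ranges over the 3 control mice, the closest being Krt8 (1362 to 1550 CPM per kilobase) and Krt20 (1051 to 1336). In Hdac1/2-deleted mice Krt20 (755, 760 and 923 CPM per kilobase in H1, H5 and H9) and Krt19 (646, 875 and 832) overlapped, and H5 had more Krt19 than Krt20. Lengths of Krt7, Krt19 and Krt80 depend on which transcripts are counted. Per kilobase of the principal transcript, an alternative chosen after seeing the data, Krt19 was at 786, 533 and 847 CPM in C1, C3 and C3-3 and at 761, 1029 and 980 CPM in H1, H5 and H9. On that length Krt19 stayed below Krt20 in all 3 control mice and was above Krt20 in all 3 Hdac1/2-deleted mice, in H1 only slightly. Krt7 was then at 15.4 and 18.8 CPM in control and Hdac1/2-deleted mice and Krt80 at 0.0307 and 0.0731 CPM, with the order of the other genes as before.

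The summed keratin level differed between the groups by less than the spread between mice, while the makeup of its type I part differed. All 7 keratins together came to 3414 ± 316 CPM per kilobase in control and 3341 ± 324 in Hdac1/2-deleted mice. The type II sum was 1475 ± 94.9 and 1502 ± 141, and the type I sum was 1939 ± 291 and 1839 ± 188 CPM per kilobase. Type I exceeded type II in all 6 mice, with ratios of 1.47, 1.08 and 1.4 in C1, C3 and C3-3 and 1.19, 1.27 and 1.21 in H1, H5 and H9. Without C3 the mean control ratio was 1.44. These sums are descriptions and carry no test.

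Within the type I sum, Krt20 made up 60.8%, 65.0% and 61.1% in C1, C3 and C3-3, and 46.4%, 40.0% and 46.4% in H1, H5 and H9. Krt19 made up 33.2%, 28% and 32.9% in control mice and 39.7%, 46.0% and 41.9% in Hdac1/2-deleted mice. Krt18 made up 5.79%, 6.84% and 5.80% and then 13.8%, 13.9% and 11.6%. The groups did not overlap for any of these 3 shares. With the principal transcript length, the mean shares went from 59.0% to 41.2% for Krt20, from 35.0% to 46.5% for Krt19 and from 5.82% to 12.2% for Krt18. Shares of 1 sum move together, so these are not 3 separate observations.

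**Figure D2:**
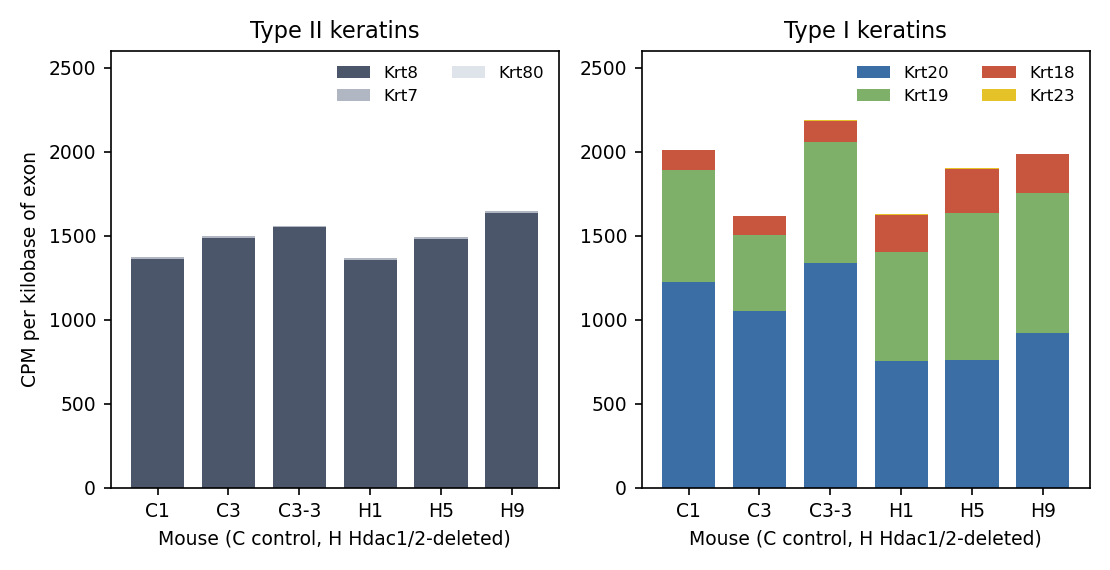
Type II keratins (left) and type I keratins (right) in each mouse, stacked, in CPM per kilobase of exon on a linear axis from 0. Krt8 makes up almost all of the type II bar in every mouse, and the Krt20 segment is shorter and the Krt18 segment longer in the 3 Hdac1/2-deleted mice (type I shares of 44.3 ± 3.69% and 13.1 ± 1.31%) than in the 3 control mice (62.3 ± 2.31% and 6.14 ± 0.603%).

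The nearest tested genes on either side of each member are given beside it. Eif4b, a translation initiation factor on the far side of Krt18, had a log2 fold change of -0.50 (edgeR adjusted p = 0.024) beside 1.02 for Krt18 and 0.02 for Krt8. Next to Krt8 on its other side lay Krt78 (log2 fold change 1.76), and next to Krt20 lay Krt12 (-1.77) and Krt23 (-0.58). Krt80 lay between Atg101, an autophagy factor (-0.17), and Krt7, which was followed by Krt83 (-1.60). Krt19 lay between Krt15 (-0.95) and Gm11598 (1.18), and Gm11560 (0.83) was the nearest tested gene beyond Krt23. Of these neighbours that are not members, Krt78, Krt12 and Eif4b had an edgeR adjusted p of at most 0.05, namely 0.015, 0.0076 and 0.024. By adjusted p alone, 20.5% of all genes tested were higher and 20.3% lower. Beside these shares, the count is no result about the neighbours.

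The genes whose pattern over the 6 mice was most like that of Krt18 were Frrs1, Gipc1 and Ppp1ca, with root mean square distances of 0.032, 0.057 and 0.059 on the centred log2 CPM scale among the 8590 genes whose mean log2 CPM reached 3. Their log2 fold changes were 1.05, 1.04 and 0.97.

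The deposited table held 10 other keratins, all with few counts, and 6 of them passed the filter on low counts. Of these 6, 1 was increased and 3 were decreased, beside 12.4% and 12.7% of all genes tested. Krt78, a type II keratin of stratified epithelia, was increased from 0.144 to 0.339 CPM in control to 0.579 to 0.829 CPM in Hdac1/2-deleted mice (log2 fold change 1.76, standard error 0.47, edgeR adjusted p = 0.015). Krt12, the keratin of the corneal epithelium and the neighbour of Krt20, was decreased from 2.75 to 6.36 CPM to 0.842 to 1.84 CPM (log2 fold change -1.77, standard error 0.41, edgeR adjusted p = 0.0076). Krt222 was decreased from 1.69 to 3.13 CPM to 0.684 to 0.992 CPM (-1.60, edgeR adjusted p = 0.0058), and Krt10, a keratin of the epidermis, from 0.846 to 1.77 CPM to 0.0975 to 0.513 CPM (-2.0, edgeR adjusted p = 0.021). The call of Krt78 was lost without C3 or H9, and that of Krt10 without C1 or H5. Krt15 (-0.95, edgeR adjusted p = 0.24) and Krt83 (-1.60, edgeR adjusted p = 0.053) did not pass.

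The 4 other keratins that were not tested had few counts. Krt13, a keratin of stratified mucosa, had 0 counts in all 3 control libraries and 9, 22 and 7 counts in H1, H5 and H9, at least 5.23-fold higher against a floor of 3 counts per library. H5 carried much of this bound, which was 2.27-fold without it. Krt14 had 5, 8 and 4 counts in control and 3, 0 and 2 in Hdac1/2-deleted mice. Krt36 had 2, 3 and 1 counts and then 7, 8 and 17, and Krt84 had 0, 0 and 4 counts and then 6, 45 and 17. The 10 other keratins together summed to 8.41 to 10.8 CPM in control mice and 4.22 to 4.79 CPM in Hdac1/2-deleted mice, with a median log2 fold change of -1.60 over the 6 tested.

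**Figure D3:**
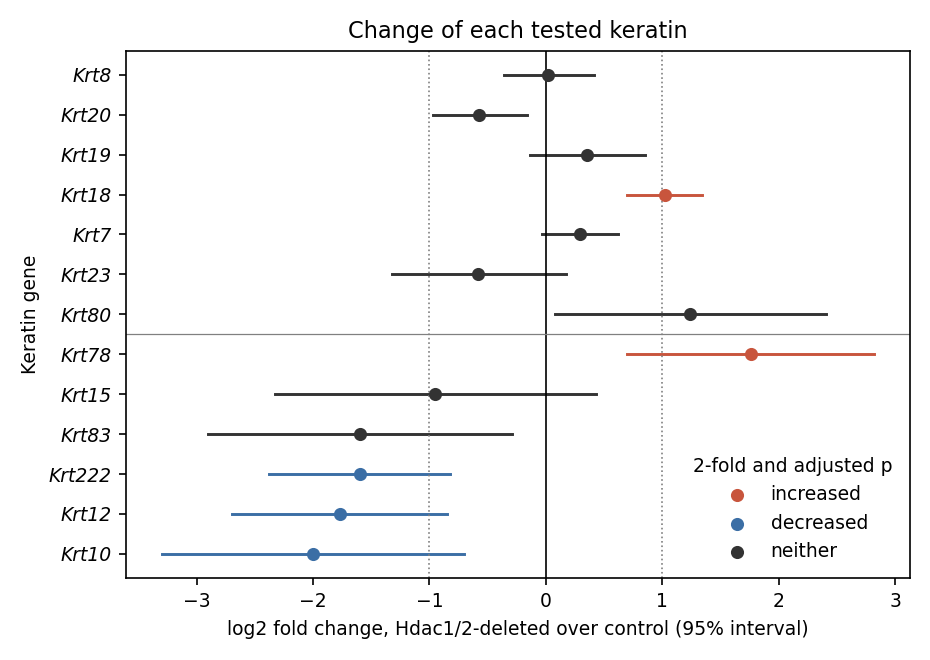
Log2 fold change (Hdac1/2-deleted over control) of the 7 epithelial keratins, above the line, and of the 6 other keratins tested, below it; points are edgeR estimates from 3 mice per group, bars are 95% intervals, dotted lines mark 2-fold and colours mark calls that met both limits. Krt18 is the member called increased, Krt8 sits at 0.02 with an interval inside the dotted lines, and Krt12, Krt222 and Krt10 are called decreased.

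Keratin filaments are anchored to the cell surface by desmosomes and tied to other structures by plakins. Of 24 genes listed for these linkers and for other proteins of junctions and the cell cortex (Vil1, Ezr and Cdh1), 19 were in the table and all 19 were tested. Dsc1, Dsc3, Dsg1c, Dsg3 and Eppk1 had no row. Ppl, the plakin periplakin, was at 9.92, 5.78 and 12.6 CPM in C1, C3 and C3-3 and at 31.8, 65.1 and 41.5 CPM in H1, H5 and H9 (log2 fold change 2.29, standard error 0.35, edgeR adjusted p = 0.0016). Pkp2, a plakophilin of the desmosomal plaque, rose from 37.2, 35.7 and 40.2 CPM to 97.2, 101 and 104 CPM (1.42, standard error 0.12, edgeR adjusted p = 5.3e-05). Pkp1, a plakophilin of stratified epithelia, fell from 20.7, 9.58 and 12.8 CPM to 0.796, 1.74 and 1.07 CPM (-3.60, standard error 0.40, edgeR adjusted p = 2.0e-04). None of the ranges of these 3 genes overlapped between the groups, and the 3 calls held under all 12 other settings. The 3 genes were named because they were called, so their lack of overlap is no separate support. Over all genes tested, the ranges were apart for 26.7% that were higher and 26.6% that were lower.

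Dsp, or desmoplakin, which joins keratins to the desmosome, fell from 640 ± 44.4 to 427 ± 78.4 CPM, by 0.58 on the log2 scale (edgeR adjusted p = 0.025), less than 2-fold. Plec, or plectin, which crosslinks filaments, was at 619 ± 89.9 and 662 ± 204 CPM (log2 fold change 0.10, 95% interval -0.45 to 0.64, edgeR adjusted p = 0.78). By both limits 2 of the 19 linkers were increased and 1 decreased, where 12.4% and 12.7% of all genes tested were. By adjusted p alone 4 linkers were higher and 4 lower, against 20.5% and 20.3% of all genes. Beside these shares, the counts are no result about the linkers as a set. Evpl (0.85) and Macf1 (0.95) among the higher and Dst (-0.97) and Dsc2 (-0.66) among the lower were named after their values were seen. The median log2 fold change over the 19 genes was 0.01, and 0.09 over the 16 without Vil1, Ezr and Cdh1, which left the counts as they were.

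Of the intermediate filaments other than keratins, 14 of 17 listed passed the filter, with 3 increased and 2 decreased. Over all genes tested, 12.4% were increased and 12.7% decreased, so these counts are not read as a result about the list. Lmna, which encodes the nuclear lamins A and C, rose from 53.3, 61.8 and 55.0 CPM in C1, C3 and C3-3 to 225, 276 and 249 CPM in H1, H5 and H9 (log2 fold change 2.14, standard error 0.14, edgeR adjusted p = 1.6e-05). Nes, or nestin, was at 0.272, 0 and 0.0188 CPM in control and 5.20, 13.5 and 4.37 CPM in Hdac1/2-deleted mice (6.18, standard error 1.07, edgeR adjusted p = 0.0041). Iffo2 rose from 2.83 to 4.09 CPM to 8.06 to 9.85 CPM (1.36, edgeR adjusted p = 0.0016). Des, the desmin of muscle, fell from 13.3, 14.1 and 0.659 CPM to 0.0945, 0.211 and 0.0813 CPM (-6.26, standard error 1.28, edgeR adjusted p = 0.0095). Its level in C3-3 was low like the other smooth muscle markers of that library, and its call was lost without H1 or H9. Synm, a partner of desmin, overlapped between the groups (-2.84, edgeR adjusted p = 0.046) and kept its call in 4 of 11 other settings. Vim, the vimentin of mesenchymal cells, was at 9.21 ± 2.05 and 6.62 ± 1.33 CPM (-0.48, edgeR adjusted p = 0.15). The median over the 14 genes was 0.19.

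**Figure D4:**
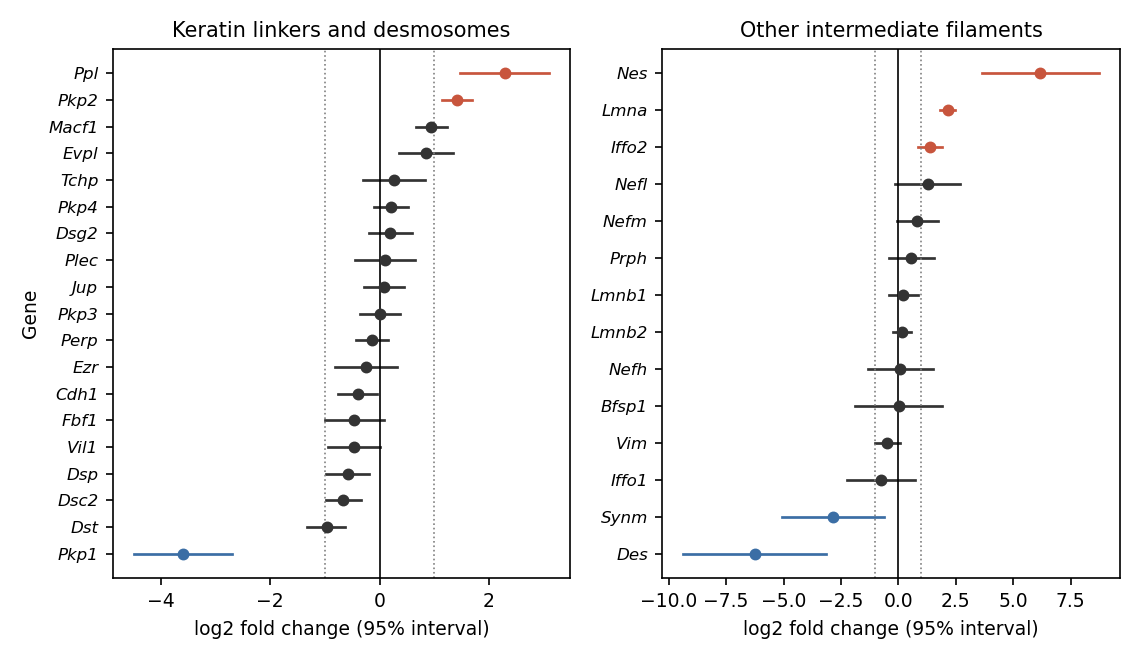
Log2 fold change (Hdac1/2-deleted over control) of 19 keratin linker and desmosome genes (left) and 14 other intermediate filament genes (right), with different horizontal scales; points are edgeR estimates from 3 mice per group, bars are 95% intervals, dotted lines mark 2-fold and colours mark calls (red increased, blue decreased). Ppl and Pkp2 stand to the right and Pkp1 to the left of the other linkers, and the interval of Lmna is narrow beside those of Nes, Des and Synm.

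The labelled cell type was checked by its markers, and the levels of other cell types are given beside the keratins. Counts of called markers stand beside 12.4% increased and 12.7% decreased over all genes tested. By adjusted p alone, these shares were 20.5% higher and 20.3% lower. Defining markers of the intestinal epithelium were abundant in both groups. Their sums did not overlap, at 12148 to 13396 CPM in control and 9694 to 11632 CPM in Hdac1/2-deleted mice. Of 10, 1 was higher and 1 lower by adjusted p alone, neither by 2-fold. Epcam, the lower one, went from 1664 ± 166 to 1081 ± 124 CPM (log2 fold change -0.62, edgeR adjusted p = 0.017), while Esrp1, the higher one, was named after its values were seen (0.51). Vil1 (-0.47, edgeR adjusted p = 0.10) and Cdx2 (0.41, edgeR adjusted p = 0.081) did not pass. Beside Krt20, the mature enterocyte list summed to 96772 to 112428 CPM in control and 41633 to 56431 CPM in Hdac1/2-deleted mice, and 10 of 20 genes were decreased, with Cyp3a11 (-3.90), Slc15a1 (-2.69), Apoa4 (-2.61) and Dpp4 (-2.59) the largest falls. Most of the fall of the sum came from Apoa4 (mean 38393 CPM in control, 6283 CPM in Hdac1/2-deleted mice) and Apoa1 (22706 and 13216 CPM). Other abundant genes of the list, such as Slc5a1 (-0.02) and Mgam (0.03), differed little. Apoa1, Slc5a1 and Mgam were named after their values were seen. Alpi, the intestinal alkaline phosphatase, was increased (1.20, edgeR adjusted p = 0.019), a call lost without C1, C3-3, H1 or H5. The median log2 fold change of the enterocyte list was -0.98, beside -0.57 for Krt20, 0.35 for Krt19 and 0.02 for Krt8. The part of enterocyte levels in the Krt20 result was not tested. In bulk RNA, fewer cells of a type and less RNA per cell cannot be told apart.

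Beside Krt18, the tuft cell list summed to 27.2 to 55.5 CPM in control and 27.2 to 34.8 CPM in Hdac1/2-deleted mice. Of its 8 tested genes, 6 were decreased and 1, Trpm5 (1.38), was increased, a gene named after its values were seen. The log2 fold change of Krt18 was 1.02, and the part of tuft cells in its level was not tested. The enteroendocrine list summed to 657 to 719 CPM in control and 1067 to 1471 CPM in Hdac1/2-deleted mice, with 1 of 8 genes increased, 3 decreased and a median of -0.17. Its sum and its median thus differed in direction, and the higher sum does not describe the list as a whole. Goblet cell markers summed to 18443 to 21066 CPM and 6588 to 13688 CPM, with 3 of 8 decreased. Paneth cell markers summed to 3320 to 5324 CPM and 182 to 282 CPM, with 8 of 8 decreased. Crypt stem cell and proliferation markers summed to 516 to 731 CPM and 289 to 505 CPM, with 2 of 10 decreased. Over all genes tested, 12.4% were increased and 12.7% decreased. Counts near these shares, as in the crypt list, are no result about a list. The part of these cell types in the keratin levels was not tested.

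Beside Krt7 and the rare keratins, markers listed for other epithelia and for fetal and regenerating intestine were counted. Over all genes tested, 12.4% were increased and 12.7% decreased. Of 12 markers of stratified squamous epithelium, Krt5, Krt4, Trp63, Dsg3 and Sprr3 had no row, and Ivl and Krt13 were at 0 in all control mice. The list summed to 105 to 264 CPM and 193 to 283 CPM, with 1 of 4 tested genes increased, Sprr1a, named after its values were seen. Sfn (mean 121 CPM) and Sprr2a1 (49.8 CPM), also named after their values were seen, made up most of the mean control sum of 173 CPM. Gastric markers summed to 1.66 to 2.85 CPM in control and 62.6 to 105 CPM in Hdac1/2-deleted mice, with 3 of 5 tested genes increased (Tff2, Anxa10 and Dpcr1, named after their values were seen). Muc6, Sox2 and Vsig1 had no row. Gkn1, Gkn2, Tff1 and Muc5ac, which define the gastric surface lining, were at 0 counts in C1 and C3-3, at 9 to 13 counts in C3 and at 0 to 9 counts in the Hdac1/2-deleted mice. Pancreatic and biliary duct markers summed to 248 to 261 CPM and 257 to 321 CPM, with 2 of 6 decreased. Slc4a4 (mean 122 CPM) and Cftr (98.0 CPM), named after their values were seen, made up most of the mean control sum of 255 CPM. A sum carried by few genes does not show that a cell type was present. Fetal and regenerating intestine markers summed to 27.5 to 41.1 CPM and 81.7 to 103 CPM, with 5 of 10 increased and 2 decreased. Mesothelial markers, a source of Krt7, Krt8, Krt18 and Krt19 in many tissues, summed to 1.81 to 3.49 CPM and 5.44 to 6.58 CPM, with 2 of 3 increased and Wt1 without a row. The part of these cell types in the levels of Krt7, Krt18 and the rare keratins was not tested.

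Markers of cells other than epithelial ones were counted in the same way. Over all genes tested, 12.4% were increased and 12.7% decreased. Beside these shares, 1 or 2 called genes in a short list are no result about that list. T lymphocyte and leukocyte markers summed to 134 to 502 CPM in control and 68.6 to 157 CPM in Hdac1/2-deleted mice, with 2 of 10 decreased. Myeloid markers summed to 9.24 to 12.3 CPM and 16.6 to 30.2 CPM, with 1 of 5 increased. Fibroblast markers summed to 4.72 to 14.6 CPM and 12.6 to 21.7 CPM, with 1 of 5 increased and 1 decreased. Endothelial markers summed to 1.35 to 3.94 CPM and 1.84 to 3.75 CPM, with 1 of 4 increased. Smooth muscle markers summed to 63.9, 48.4 and 2.56 CPM in C1, C3 and C3-3 and 0.283 to 0.390 CPM in Hdac1/2-deleted mice, with 5 of 5 decreased. Without C3-3, the log2 fold change was -0.48 for Krt20, and the call of Krt18 was kept.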

How the data were processed

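The authors enriched jejunal IEC by EDTA treatment, made directional libraries from polyadenylated RNA and aligned the reads with STAR. The submitters' processing notes list STAR 2.4.0f1, bcl2fastq 1.8.4 and mm9, whereas the study's methods name GRCm38. Gene positions given here are GENCODE M21 on GRCm38, matched by identifier. The counting program, its annotation and its use of strand were not given in the sources used here, so reads of overlapping antisense genes may not be separable. The authors deposited raw counts of reads per gene, and no row had fewer than 10 counts over the 6 libraries. The table's normalized values and the authors' own fold changes and p-values were not used.

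Counts were filtered with filterByExpr, scaled with TMM (factors 0.8916 to 1.136) and fitted with edgeR 4.0.16 (robust quasi-likelihood, prior count 0.125, no covariates) in R 4.3.3 with limma 3.58.1, with Benjamini-Hochberg adjustment over all 15618 genes tested. CPM are counts scaled to the TMM-adjusted library total. Calls needed an adjusted p of at most 0.05 and 2-fold, limits taken from the study's methods. Errors are SD over 3 mice. The ratio of Krt18 to Krt8 was compared with SciPy 1.17.1, and plots used matplotlib 3.10.9 in Python 3.11.15. The edgeR fit was tested on simulated counts with known changes, all larger than that of Krt18.

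The members and lists were chosen with earlier results of these data known. The text names all 7 members, called genes of the keratin, linker and filament lists (at most 6, 4 and 4 by size and direction), Plec, Dsp, Vim and Lmna, up to 4 called epithelial and enterocyte genes in each direction with Epcam, Vil1 and Cdx2, the nearest tested neighbours, and the 3 genes most like a called member. Alternatives changed the scaling, the test (DESeq2 1.42.0), the filter, the prior count, the limits and the length, and left out each mouse in turn. Labels give no batch. All 15 pairs of libraries differed in most genes, so none was deposited in duplicate.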

Additional observations from a re-analysis of the deposited data

How the results depend on the processing

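Krt8 was at -0.02 without C1 and -0.04 without H9 on the log2 scale, beside 0.02 with all mice, so its direction was not fixed; leaving out each mouse gave -0.04 to 0.09. The number of epithelial keratins increased, 1 with all mice, was 2 after scaling by library totals alone, with Krt80 added, and 0 to 1 when each mouse was left out in turn. Without a fold limit, 1 epithelial keratin was decreased (Krt20). The number of other keratins increased, 1 in the fit reported, was 3 with DESeq2, 4 without a filter on low counts, 0 with at least 10 counts in every library, 0 with an adjusted p limit of 0.01, and 0 to 3 when each mouse was left out. The linkers increased, 2 in the fit reported, numbered 4 with library totals only, 4 without a fold limit and 2 to 4 with each mouse left out, and those decreased, 1 in the fit reported, numbered 4 without a fold limit and 1 to 2 with each mouse left out. The other intermediate filaments decreased, 2 in the fit reported, numbered 1 with library totals only, 1 without a filter, 0 with at least 10 counts in every library, 1 with an adjusted p limit of 0.01, and 0 to 2 with each mouse left out. Over all genes, no fold limit gave 3198 higher and 3168 lower genes, against 1944 and 1990, and library totals only gave 2463 and 1538. The type I to type II ratio in Hdac1/2-deleted mice, 1.22 per kilobase of exon, was 1.12 from counts without length and 1.31 per kilobase of principal transcript, an alternative chosen after seeing the data. For each of these shifts the cause was not tested.

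Depth limited Krt80, with 4 to 16 counts per library. It also limited Krt13, Krt14, Krt15, Krt36, Krt83 and Krt84, which had 3 counts or fewer in at least 1 library. Krt80 had no value with at least 10 counts in every library. With 3 mice per group, an exact permutation test cannot go below a p of 0.10. No paired analysis was possible because the labels give no pairing of mice between the groups.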
